A study of Homo sapiens with 16 samples.

Results

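The genes described here are the 7 members of the UFMylation pathway that were followed: UFM1, UFC1, UFL1, DDRGK1, CDK5RAP3, UFSP2 and ODR4. They were chosen by symbol, with earlier results of these data known, and all 7 were found among the 58051 genes of the count table. The RNA came from LNCaP, a human prostate cancer cell line that carries luminal features and responds to androgens. In the knockdown experiment, cells received Allstar control siRNA (siCtrl, 4 libraries) or siRNA against XBP1 (siXBP1, 4 libraries) and TG followed after 2 days. For the inhibitor experiment, they received DMSO (Vehicle, 4 libraries) or 10 µM MKC8866 (4 libraries) for 24 h before TG was added. MKC8866 blocks the RNase of IRE1α, the ER stress sensor that splices XBP1 mRNA so that the transcription factor XBP1s is made. All 16 libraries, the controls included, came from cells given 30 nM thapsigargin (TG) for the last 3 h, which empties ER calcium and causes ER stress. There was no group without TG, so TG-stressed cells were compared with TG-stressed cells in both experiments. The authors describe the 4 libraries of a group as independent samples, but no source used here says that they came from separate cultures. The p-values therefore measure the spread between these samples only.

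UFMylation is the attachment of the small ubiquitin-like protein UFM1 to lysines of other proteins. The precursor of UFM1 is trimmed by a protease, activated, passed to the E2 enzyme UFC1 and attached by the E3 ligase UFL1. UFL1 works in a complex with DDRGK1 (also called UFBP1), which is anchored in the ER membrane, and with the adaptor CDK5RAP3. UFSP2 removes UFM1 again and is held at the ER by ODR4. The best known target is the ribosomal protein RPL26 on ribosomes docked at the ER, where the modification takes part in clearing stalled ribosomes, and the pathway is active in secretory cells.

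The windows around the annotated starts of the members are shown first, because XBP1s binds DNA through short motifs. Both treatments were aimed at XBP1 or its splicing. Windows ran from 250 bases before to 50 bases after the start in RefSeq (GRCh38.p14), and 5 of the 7 members had an entry. Both strands were searched for TGACGTG, the core of the unfolded protein response element, for CCACG and CCAAT, the outer parts of the ER stress response element, and for the complete elements ERSE and ERSE-II. TGACGTG was found in 1.97% of all 35116 windows, CCACG in 38.1%, CCAAT in 34.6%, ERSE in 0.0769% and ERSE-II in 0.0541%. The windows of UFM1 and UFL1 are given because these genes had lower counts in both comparisons, and that of CDK5RAP3 for the same reason. Capitals mark matches to these 3 short motifs on either strand.

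UFM1, chr13:38349601-38349900, plus strand: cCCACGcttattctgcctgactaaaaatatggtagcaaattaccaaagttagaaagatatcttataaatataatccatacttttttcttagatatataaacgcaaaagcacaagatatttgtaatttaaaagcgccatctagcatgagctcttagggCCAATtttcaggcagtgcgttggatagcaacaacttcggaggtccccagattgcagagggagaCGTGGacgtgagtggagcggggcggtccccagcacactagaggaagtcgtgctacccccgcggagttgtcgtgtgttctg

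UFL1, chr6:96521556-96521855, plus strand: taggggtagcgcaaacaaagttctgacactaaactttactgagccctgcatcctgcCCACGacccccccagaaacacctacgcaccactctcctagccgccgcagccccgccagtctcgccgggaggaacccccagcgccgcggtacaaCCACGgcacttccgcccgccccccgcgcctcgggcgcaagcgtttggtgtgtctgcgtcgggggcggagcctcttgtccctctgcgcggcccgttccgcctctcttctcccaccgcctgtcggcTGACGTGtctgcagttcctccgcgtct

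CDK5RAP3, chr17:47970863-47971162, plus strand: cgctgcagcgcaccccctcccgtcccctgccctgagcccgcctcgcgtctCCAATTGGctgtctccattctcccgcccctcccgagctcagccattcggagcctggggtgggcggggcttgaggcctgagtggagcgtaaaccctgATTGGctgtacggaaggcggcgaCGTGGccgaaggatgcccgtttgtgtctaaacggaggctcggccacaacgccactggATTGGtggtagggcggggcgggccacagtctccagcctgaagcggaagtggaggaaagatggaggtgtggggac

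Counting the RefSeq start base as 0, the UFL1 window held TGACGTG at positions 23 to 29 and CCACG starting at −194 and −101. The annotation used for counting starts UFL1 earlier, at 96521595 within this window, so all these matches lie downstream of that start. The UFM1 window held CCACG at −249, its reverse complement at −30 and CCAAT at −93, with neither TGACGTG nor a complete ERSE. The CDK5RAP3 window held the reverse complement of CCACG at −81 and 4 matches to CCAAT, of which 2 overlap each other in the run that starts at −200. RefSeq gives CDK5RAP3 another window, which starts at chromosome 17 position 47970278 and held none of the motifs. The annotation used for counting starts CDK5RAP3 at 47967810, upstream of both windows. The ODR4 window held 1 CCACG and the UFSP2 window none of the motifs. No window of a member held ERSE or ERSE-II. A match is only a run of letters, and binding of XBP1s was not measured here.

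The libraries held 28713607 to 34509488 counted fragments. MKC8866 4 was the deepest of its group, at 34507788 where the other MKC8866 libraries had 29203993 to 29877647. Vehicle 4 was also the deepest of its group, at 34188950 against 28923919 to 30621510. XBP1 itself was at 359.0 to 421.6 CPM (counts scaled to the size of each library) in siCtrl and at 51.2 to 54.2 CPM in siXBP1, so no knockdown library went against its label. In the inhibitor experiment, total XBP1 was higher with MKC8866 by a log2 fold change of 0.20 (adjusted p = 0.0049), and counts per gene do not separate spliced from unspliced XBP1. All 5 luminal prostate markers examined were expressed in every group (KLK3, KLK2, TMPRSS2, FOLH1 and HOXB13, group means of 101.0 to 1255 CPM). The leukocyte marker PTPRC and the endothelial marker PECAM1 reached at most 0.068 CPM, the basal markers KRT5 and TP63 at most 0.552 CPM. Of the fibroblast collagens, COL1A1 was expressed in every library at 24.7 to 36.6 CPM, a range that overlaps that of the member UFSP2. COL3A1 was lower, at 1.82 to 4.90 CPM, and rose after knockdown (log2 fold change 1.10, adjusted p = 1.32e-06). KLK3, the gene of prostate specific antigen, changed by −0.86 after knockdown and by 0.46 with MKC8866 on the log2 scale, and 3 of the 5 luminal markers were called lower after knockdown. Whether this bears on the UFMylation genes was not tested. RNA was taken from whole cultures, so fewer cells with a transcript and less of it per cell cannot be told apart.

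Per kilobase of annotated exon, DDRGK1 stood highest in siCtrl at 62.4 ± 3.09 CPM per kb (SD, n = 4). UFL1 (23.2 ± 1.17) and UFC1 (20.5 ± 1.23) followed in the same group and unit. UFM1 (15.3 ± 0.81), UFSP2 (13.7 ± 0.75), CDK5RAP3 (12.9 ± 1.83) and ODR4 (12.2 ± 0.84) lay lower, and neighbours among these last 3 did not differ beyond their spread. The same 4 genes were also the lowest in Vehicle, between 12.6 CPM per kb for ODR4 and 16.7 CPM per kb for UFM1. The divisor is the length of all annotated exons of a gene, not of the transcripts expressed, so comparisons between genes depend on it. DDRGK1 (1832 bases) and UFL1 (4539 bases) had siCtrl means of 114.3 and 105.4 CPM before this division. Fragments that met 2 genes were not counted, so the levels of members with shared exon bases are lower limits. This applies most to UFSP2, which shares 909 exon bases, or 32.7% of its exon length, with ANKRD37 on the opposite strand, and also to UFC1 (14.6%), CDK5RAP3 (11.8%) and UFL1 (0.64%), which share bases with lncRNAs. All 7 members passed the filter on low counts in both comparisons.

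After XBP1 knockdown, 5 of the 7 members were lower and none was higher, and with MKC8866 3 of the 7 were lower and none was higher (edgeR quasi-likelihood test, Benjamini-Hochberg adjusted p under 0.05 over all genes). UFM1, UFL1 and CDK5RAP3 were lower in both. All 7 changes were below 0 in each comparison, so none was higher at an unadjusted p under 0.05 or by DESeq2. Among all genes tested, 18.2% were called lower and 16.5% higher after knockdown, against 3.11% lower and 1.36% higher with MKC8866. Lower in both comparisons were 505 of 20357 genes, or 2.48%. The members were chosen with earlier results of these data known, so their counts do not test for an excess over these shares. The median log2 fold change of the 7 members was −0.27 after knockdown and −0.17 with MKC8866, where the medians of all genes were 0.0050 and 0.0027. The 4 treated libraries lay entirely below the 4 controls for 4 members in each comparison, where 32.8% of all genes did not overlap in either direction after knockdown and 9.28% with MKC8866.

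**Figure D1:**
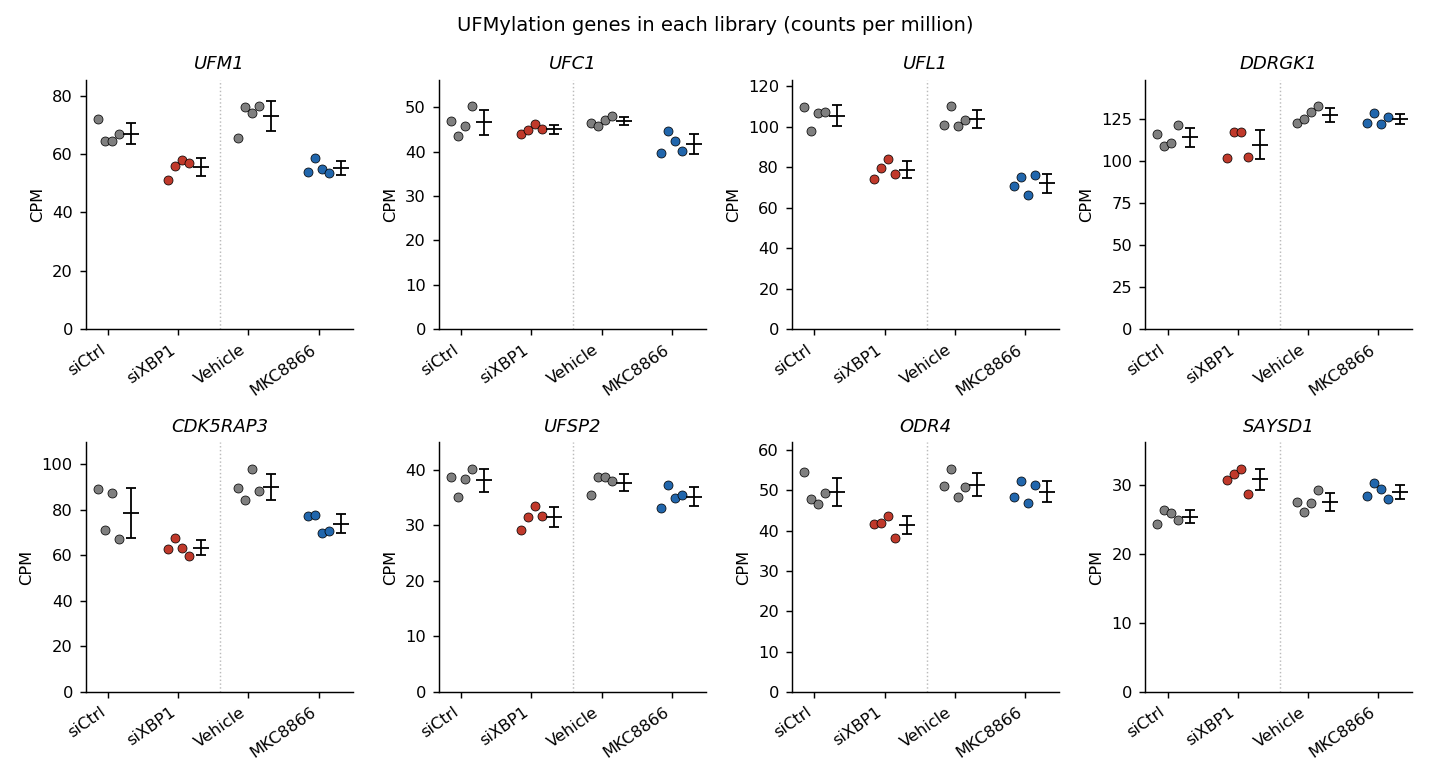
CPM (y axis, from 0) of the 7 members and of SAYSD1 in each of the 16 libraries, by group, with the group mean and SD (n = 4) beside the points and a dotted line between the experiments. UFM1 and UFL1 are below their controls in every siXBP1 and MKC8866 library, UFSP2 and ODR4 are below them in every siXBP1 library only, and the DDRGK1 points overlap.

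UFM1, the modifier itself (ENSG00000120686, chromosome 13:38349849-38363619, plus strand, GRCh38), was at 71.9, 64.4, 64.4 and 67.0 CPM in siCtrl and at 51.2, 56.1, 58.1 and 56.9 CPM in siXBP1. Every siXBP1 library was below every siCtrl library. The log2 fold change was −0.27 (SE 0.051, adjusted p = 2.15e-04), which is 17.02% lower. For MKC8866, UFM1 was at 65.6, 76.0, 74.1 and 76.3 CPM in Vehicle and at 53.9, 58.5, 54.9 and 53.5 CPM with MKC8866. The groups again did not overlap, although Vehicle 1 was closer to the treated libraries than the other Vehicle libraries were. The log2 fold change with MKC8866 was −0.40 (SE 0.051, adjusted p = 7.88e-06), or 24.3% lower.

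UFC1, the E2 enzyme that carries UFM1 to the ligase (ENSG00000143222, chromosome 1:161152776-161158856, plus strand), was at 47.0, 43.4, 45.8 and 50.2 CPM in siCtrl and at 43.9, 44.8, 46.3 and 45.0 CPM in siXBP1. The siXBP1 libraries lay inside the range of the controls, and the log2 fold change of −0.05 (95% interval −0.17 to 0.07, adjusted p = 0.491) did not pass the test. In the inhibitor experiment UFC1 was at 46.4, 45.8, 47.1 and 47.9 CPM in Vehicle and at 39.7, 44.7, 42.3 and 40.1 CPM with MKC8866. All 4 treated libraries were below all 4 controls, but the log2 fold change of −0.17 (95% interval −0.29 to −0.04) had an adjusted p of 0.0596. It was called in 4 of 6 alternative fits that kept all libraries, among them DESeq2 (adjusted p = 0.0287), the fit with at least 10 counts required in every library (0.0446) and the fit of all 16 libraries (0.0496), and also without MKC8866 replicate 2 (0.0114). UFC1 shares 331 exon bases with an opposite-strand lncRNA that had at most 4 counts in a library.

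UFL1, the E3 ligase (ENSG00000014123, chromosome 6:96521595-96555276, plus strand), showed the largest change of the 7 members in both comparisons. It was at 109.7, 97.6, 106.9 and 107.3 CPM in siCtrl and at 74.3, 79.7, 84.0 and 76.8 CPM in siXBP1. The highest siXBP1 library was clearly below the lowest siCtrl library, and the log2 fold change was −0.42 (SE 0.048, adjusted p = 3.24e-07), or 25.3% lower. With MKC8866 it was at 70.5, 75.1, 66.2 and 76.1 CPM, where the Vehicle libraries had 100.8, 109.9, 100.5 and 103.3 CPM. The groups were again well apart, with a log2 fold change of −0.52 (SE 0.049, adjusted p = 5.44e-08), or 30.4% lower. This start of UFL1 lies 74 bases from that of the divergent lncRNA UFL1-AS1, which had at most 4 counts in a library. The window with TGACGTG printed above was placed by a RefSeq start that lies downstream of this one.

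DDRGK1, the ER membrane anchor of the ligase (ENSG00000198171, chromosome 20:3190350-3204685, minus strand), did not pass the test in either comparison. Its siCtrl libraries had 116.0, 108.9, 110.7 and 121.5 CPM and its siXBP1 libraries 102.0, 117.2, 117.4 and 102.7 CPM. A pair of siXBP1 libraries lay below all controls and the other pair among them. The log2 fold change was −0.06 (95% interval −0.18 to 0.07, adjusted p = 0.440). For the inhibitor, DDRGK1 was at 122.9, 125.0, 129.2 and 132.6 CPM in Vehicle and at 122.8, 128.5, 122.4 and 126.5 CPM with MKC8866. These groups overlapped, with a log2 fold change of −0.03 (95% interval −0.12 to 0.07, adjusted p = 0.849). The intervals leave room for a small fall in either comparison, but they do not reach the values of UFL1.

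CDK5RAP3, the adaptor of the ligase complex (ENSG00000108465, chromosome 17:47967810-47981774, plus strand), was at 89.0, 71.0, 87.1 and 67.1 CPM in siCtrl and at 62.9, 67.7, 63.0 and 59.7 CPM in siXBP1. The siCtrl libraries fell into a higher and a lower pair, and the groups overlapped by siCtrl 4 and siXBP1 2. The log2 fold change was −0.31 (SE 0.071, adjusted p = 0.00135) and stayed called without any single library (highest adjusted p = 0.0103). In the inhibitor experiment the values were 89.3, 84.2, 97.7 and 87.9 CPM in Vehicle and 77.2, 77.4, 69.9 and 70.8 CPM with MKC8866. Here the groups did not overlap, and the log2 fold change was −0.28 (SE 0.050, adjusted p = 6.97e-04), or 17.7% lower. CDK5RAP3 shares 429 exon bases with a same-strand and 285 with an opposite-strand lncRNA, both at 0 counts in every library.

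UFSP2, the protease that removes UFM1 from its targets (ENSG00000109775, chromosome 4:185399540-185425985, minus strand), was at 38.7, 35.1, 38.3 and 40.1 CPM in siCtrl and at 29.2, 31.6, 33.5 and 31.7 CPM in siXBP1. All siXBP1 libraries were below all controls, with a log2 fold change of −0.27 (SE 0.056, adjusted p = 4.97e-04). The other experiment had UFSP2 at 35.4, 38.6, 38.7 and 37.9 CPM in Vehicle and at 33.0, 37.2, 34.9 and 35.5 CPM with MKC8866. These libraries overlapped, and the log2 fold change of −0.10 (95% interval −0.22 to 0.03, adjusted p = 0.413) did not pass the test. ANKRD37, which shares exon bases with UFSP2 on the opposite strand, had a median of 101 counts per library, and counting took no account of strand. The start of C4orf47 lies 264 bases from that of UFSP2 on the opposite strand, and it had a median of 13 counts.

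ODR4, the ER partner of UFSP2 (ENSG00000157181, chromosome 1:186375838-186421378, plus strand), was at 54.5, 47.9, 46.6 and 49.5 CPM in siCtrl and at 41.6, 41.8, 43.7 and 38.3 CPM in siXBP1. The groups did not overlap, and the log2 fold change was −0.26 (SE 0.055, adjusted p = 6.23e-04). With the inhibitor and its control, ODR4 was at 51.1, 55.3, 48.5 and 50.8 CPM in Vehicle and at 48.3, 52.3, 46.9 and 51.4 CPM with MKC8866. The groups overlapped along most of their range, with a log2 fold change of −0.05 (95% interval −0.17 to 0.08, adjusted p = 0.766). The start of ODR4 lies 145 bases from that of TPR on the opposite strand, and TPR had a median of 5967 counts per library.

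**Figure D2:**
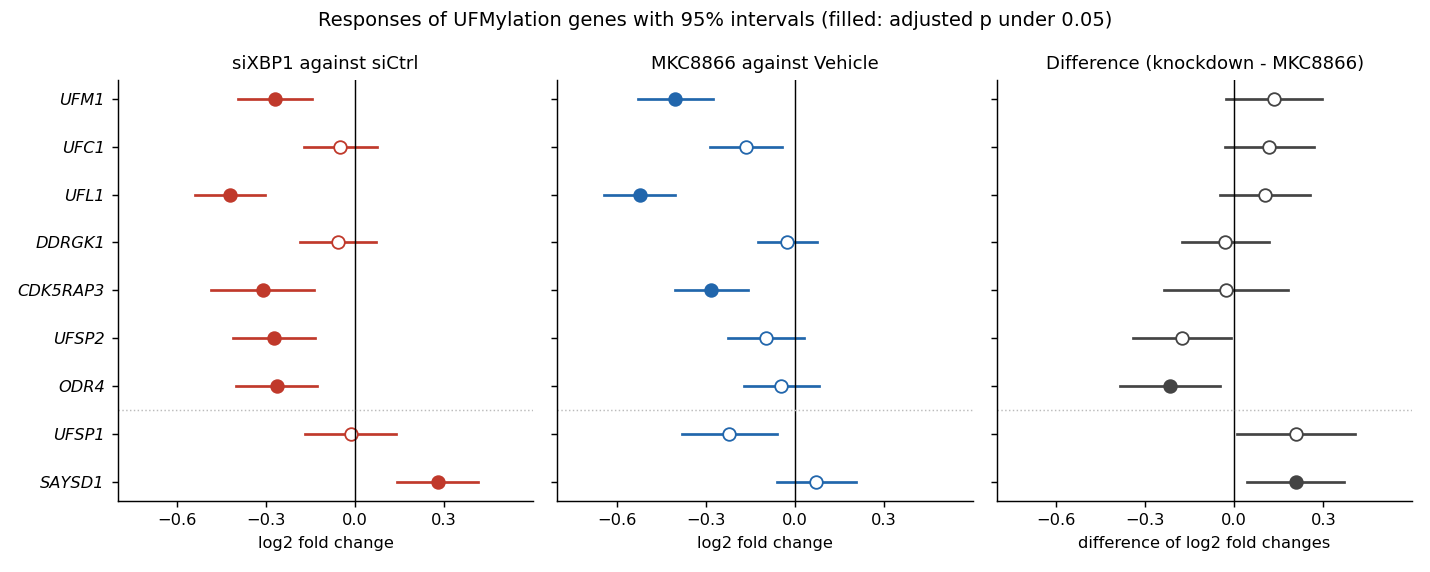
Log2 fold changes (x axis) with 95% intervals of the 7 members and, under the dotted line, of 2 other pathway genes, for knockdown, for MKC8866 and for the difference of the responses. Filled points passed an adjusted p of 0.05, and UFL1 is farthest from 0 among the members in both comparisons, at −0.42 and −0.52.

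The responses to knockdown and to MKC8866 were then compared directly, as the difference of the log2 fold changes over all 16 libraries. Each experiment had its own controls and time of pretreatment, so the agent and the experiment cannot be told apart in this test. Among all genes, 23.3% differed between the responses, and among the members 1 of 7 did. ODR4 was lower after knockdown than with MKC8866 by a difference of −0.22 (SE 0.077, adjusted p = 0.0408). The call was lost in 10 of 16 fits that left out 1 library (siCtrl 1 or 4, siXBP1 1, 2 or 4, Vehicle 1, 3 or 4, and MKC8866 2 or 4, adjusted p from 0.0525 to 0.110). Its partner UFSP2 had a difference of −0.17 (adjusted p = 0.0983), and without siCtrl replicate 2 it passed (adjusted p = 0.0432). UFM1 (0.13, adjusted p = 0.208), UFL1 (0.10, adjusted p = 0.321) and CDK5RAP3 (−0.03, adjusted p = 0.879) did not pass. For these 3 genes the 95% intervals of the difference were −0.03 to 0.30, −0.05 to 0.26 and −0.24 to 0.18 in turn, so differences of that size remain within the spread.

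**Figure D3:**
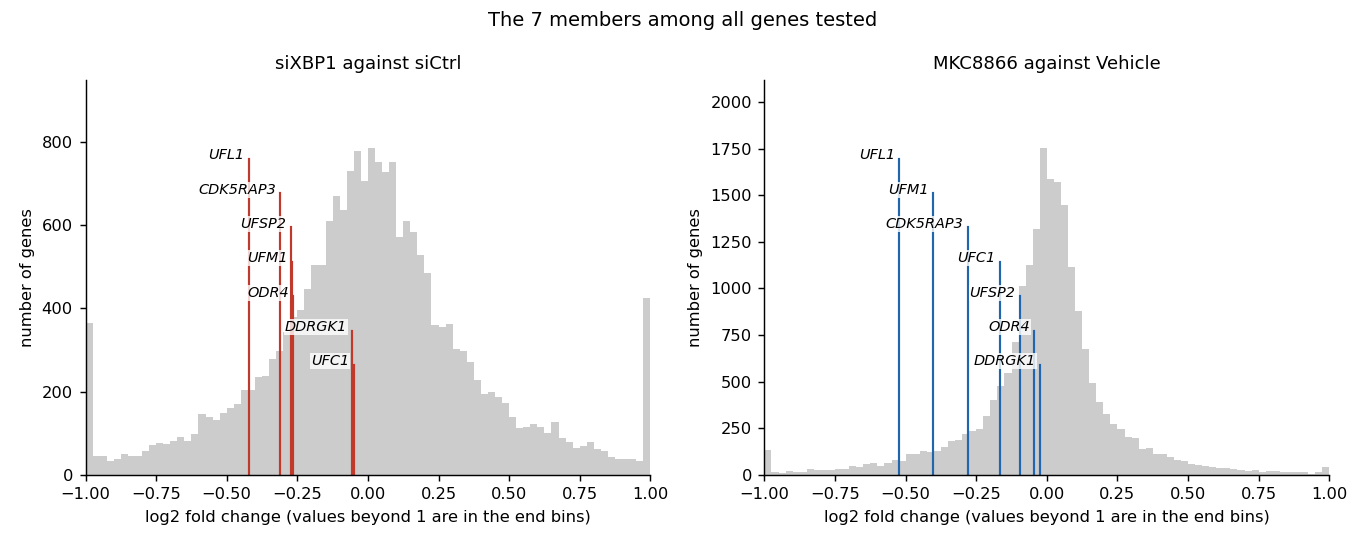
Number of genes (y axis) by log2 fold change (x axis) for knockdown (21021 genes) and MKC8866 (21045 genes), with colored lines for the 7 members and values beyond 1 placed in the end bins. The knockdown distribution is wider, so that 11.5% of genes lie below UFL1 after knockdown and 3.75% with MKC8866.

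The knockdown moved more genes than MKC8866 did, and the place of a member among all genes differed accordingly. After knockdown 19.3% of genes had a lower log2 fold change than UFM1, and with MKC8866 6.25% did. For CDK5RAP3 these shares were 16.7% and 10.2%. DDRGK1 lay near the middle in both, with 41.1% and 40.8% of genes below it.

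Ratios between members within a library, from counts per kb of exon, do not depend on how libraries are scaled, and 6 ratios were compared in 2 experiments. The ratio of UFL1 to DDRGK1 was 0.357 to 0.390 in siCtrl and 0.274 to 0.302 in siXBP1, a log2 difference of −0.36 (pooled SD 0.060). In the inhibitor experiment it was 0.314 to 0.355 in Vehicle and 0.218 to 0.243 with MKC8866, a log2 difference of −0.50 (pooled SD 0.075). Neither pair of groups overlapped, and each exact permutation test gave p = 0.0286, the smallest that 4 against 4 libraries allow, which is 0.0686 after adjustment over the 12 tests. With these numbers no ratio passed an adjusted p of 0.05.

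The ratio of UFM1 to its protease UFSP2 was 1.18 to 1.28 in Vehicle and 0.957 to 1.04 with MKC8866 (log2 difference −0.30, exact permutation p = 0.0286, adjusted 0.0686). After knockdown, in which both genes were lower, this ratio overlapped between groups, with a log2 difference of 0.0035 (exact permutation p = 0.943). DDRGK1 to CDK5RAP3 also did not overlap with MKC8866, at 4.38 to 4.995 in Vehicle and 5.27 to 5.92 in the treated libraries. UFM1 to UFL1 did not overlap after knockdown, at 0.624 to 0.683 in siCtrl and 0.713 to 0.766 in siXBP1. The UFL1 to CDK5RAP3 and UFSP2 to ODR4 ratios overlapped between the groups in both experiments.

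**Figure D4:**
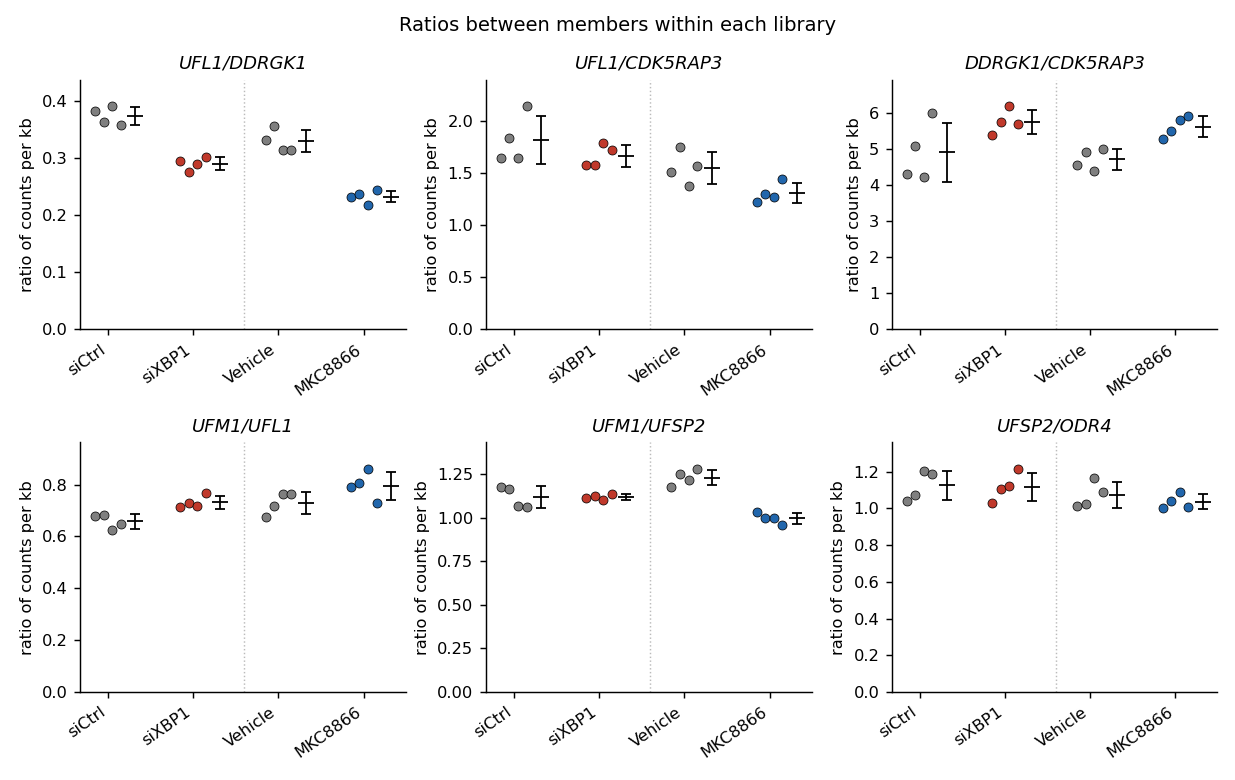
Ratios of counts per kb of exon (y axis, from 0) between pairs of members in each library, by group, with the group mean and SD (n = 4). UFL1/DDRGK1 is lower in all siXBP1 and MKC8866 libraries than in their controls, and UFSP2/ODR4 overlaps in both experiments.

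Of 2 other genes of the pathway, 1 was higher after knockdown and the other, UFSP1, was called with MKC8866 under some settings only. UFSP1, a protease that trims the UFM1 precursor (chromosome 7:100888723-100889718), was at 19.2 to 20.9 CPM in siCtrl and 18.6 to 21.6 CPM in siXBP1 (log2 fold change −0.02, adjusted p = 0.891). With MKC8866 it was at 18.8 to 22.9 CPM against 23.2 to 24.8 CPM in Vehicle, a log2 fold change of −0.22 whose adjusted p of 0.0576 missed the threshold. It was called in 5 of 6 alternative fits that kept all libraries, among them DESeq2 (adjusted p = 0.0340) and edgeR without a filter on low counts (0.0285), with at least 10 counts in every library (0.0497) and over all 16 libraries (0.0431). Without MKC8866 replicate 1 it was called as well (0.00987). SAYSD1, an ER membrane protein that recognises UFM1 on ribosomes at the translocon (chromosome 6:39104064-39115189), was the gene that was higher after knockdown. It was at 24.3 to 26.4 CPM in siCtrl and 28.6 to 32.2 CPM in siXBP1 and rose by a log2 fold change of 0.28 (SE 0.056, adjusted p = 3.84e-04). With MKC8866 its value was 0.07 (95% interval −0.06 to 0.21, adjusted p = 0.600).

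Reported targets of UFM1 and the machinery for stalled ribosomes were examined as neighbouring steps. These lists, too, were chosen with earlier results of these data known. Over all genes, 18.2% were called lower and 16.5% higher after knockdown, against 3.11% and 1.36% with MKC8866. Of 7 reported targets, 3 were lower and none higher after knockdown (median log2 fold change −0.10). With MKC8866, 2 of them were lower and none higher (median −0.05). SYVN1, the ubiquitin ligase of ER-associated degradation, changed most, by −1.45 after knockdown and −1.14 with MKC8866. RPN1, a subunit of the oligosaccharyltransferase, changed by −0.41 and −0.21. The DNA repair nuclease MRE11 was lower after knockdown only by the test (−0.35, adjusted p = 1.12e-05) and had −0.05 with MKC8866. The difference of its responses passed (−0.29, adjusted p = 0.0089). RPL26 did not pass in either comparison (0.15, adjusted p = 0.0654, and −0.07, adjusted p = 0.645), and it has near-identical copies in the genome, so fragments that mapped to several places are missing from its counts. At an unadjusted p under 0.05, 1 target was higher after knockdown and none with MKC8866, and DESeq2 called none higher in either.

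Of 6 genes of ribosome-associated quality control, 5 were lower after knockdown and 2 with MKC8866. Over all genes, the shares called lower were 18.2% and 3.11%. None of the 6 was higher in either comparison by edgeR, by DESeq2 or at an unadjusted p under 0.05. The ribosome rescue factors PELO (−0.36) and HBS1L (−0.27) were lower after knockdown, together with NEMF (−0.27), which marks stalled large subunits, ANKZF1 (−0.20), which releases stalled chains, and the ligase LTN1 (−0.14). LTN1 lost its call without siCtrl 1 (adjusted p = 0.165), siCtrl 3 (0.0968), siXBP1 2 (0.183), siXBP1 3 (0.0874) or siXBP1 4 (0.110). It also missed the threshold in 1 of 6 alternative fits that kept all libraries (adjusted p = 0.0554). With MKC8866, HBS1L (−0.29) and PELO (−0.14) were lower. PELO lost its call without Vehicle 1 (adjusted p = 0.0782), Vehicle 3 (0.0905), Vehicle 4 (0.0989), MKC8866 3 (0.0758) or MKC8866 4 (0.0846). In 1 of 6 alternative fits that kept all libraries PELO missed the threshold as well (adjusted p = 0.0556).

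A pair of other ubiquitin-like systems was set beside the members. Of 6 genes of the NEDD8 pathway, none was called in either comparison by edgeR. At an unadjusted p under 0.05, 1 of them was higher after knockdown and none changed with MKC8866, and DESeq2 also called 1 higher after knockdown and none with MKC8866. Their median log2 fold changes were 0.11 after knockdown and −0.01 with MKC8866. Of 5 genes of the SUMO pathway, SUMO3 was lower (−0.19) and SUMO2 (0.27) was higher after knockdown. Shares called over all genes were 18.2% lower and 16.5% higher after knockdown, and 3.11% lower and 1.36% higher with MKC8866. With MKC8866 none of the 5 SUMO genes was called by edgeR or DESeq2 or had an unadjusted p under 0.05. At such shares, a lack of calls with MKC8866 among so few genes does not set the NEDD8 and SUMO pathways apart. For scale, the XBP1s target SERP1, which protects proteins during translocation into the ER, changed by −1.50 after knockdown and −0.75 with MKC8866. In the same order, the XBP1s target EDEM1 changed by −0.70 and −0.65 and the chaperone DNAJC3 by −0.50 and −0.49. UFL1 with MKC8866 (−0.52) had a change of about the size of DNAJC3, the smallest of these. After knockdown, UFL1 (−0.42) changed less than any of them.

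Across the 16 libraries, after subtracting the mean of each experiment, the 21 pairs of members had Pearson correlations of log2 CPM between 0.31 and 0.94 (median 0.64). After subtracting the mean of each group they lay between −0.05 and 0.76 (median 0.43). These values describe libraries that share treatment, depth and scaling. Among 15041 genes with a mean of at least 1 CPM, those most like each member by the first measure were SRP19, a subunit of the signal recognition particle (r = 0.974), for UFM1, TIMM17A (r = 0.988) and TVP23B (r = 0.983) for UFL1, and BCAP31 (r = 0.884) for UFC1. For CDK5RAP3 it was BTAF1 (r = 0.934), for UFSP2 DHRS7 (r = 0.979), for ODR4 CCDC191 (r = 0.930) and for DDRGK1 ATG101 (r = 0.879).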

How the data were processed

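The data are counts per gene from RNA-seq of LNCaP cells in 4 groups of 4 libraries. The authors deposited raw counts of fragments, made from stranded 150 bp paired-end libraries with STAR 2.5.2a (hg38) and featureCounts 1.5.0-p3 on Ensembl release 85. Strand was ignored, and fragments that mapped to several places or met more than 1 gene were left out, which lowers genes with shared exons.

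The siXBP1 libraries were tested against siCtrl, and MKC8866 against Vehicle, in edgeR 4.0.16 (R 4.3.3, TMM, quasi-likelihood F test, two-sided), after dropping every gene that did not exceed 5 counts in some library of both groups. The threshold was a Benjamini-Hochberg adjusted p of 0.05 over all genes tested. The difference of responses was an interaction over all 16 libraries. CPM were scaled by TMM over all libraries. Standard errors were derived from the F statistic, and 95% intervals used 6 degrees of freedom (12 for the interaction), which is wider than edgeR's moderated test. Ratios were compared by exact permutation. The correlations used log2(CPM + 0.05).

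Totals were 28713607 to 34509488 counts per library, and the biological coefficient of variation was 5.40% (knockdown) and 4.97% (inhibitor). Symbols were matched for 56948 of 58051 genes through GENCODE 44, and start windows came from RefSeq GRCh38.p14. The members and all gene lists were chosen with earlier results of these data known. All members are named, with the listed genes and, for each member, the genes most like it. Some genes of the lists are not reported here. The steps were tested on simulated data. Alternatives were DESeq2 1.42.0, its size factors, other filters, the replicate block, 1 fit of all libraries and leaving out each library. Python 3.11.15, numpy 2.4.6, pandas 2.3.3, scipy 1.17.1 and matplotlib 3.10.9 were used elsewhere.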

Additional observations from a re-analysis of the deposited data

Results flagged for a closer look

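The responses to knockdown and MKC8866 differed by the interaction test for ODR4 (difference −0.22, adjusted p = 0.0408, edgeR quasi-likelihood test), with −0.26 after knockdown and −0.05 with MKC8866. They also differed for SAYSD1 (difference 0.21, adjusted p = 0.0442), with 0.28 after knockdown and 0.07 with MKC8866. Among all genes 23.3% differed in this way. Both calls were lost in most fits that left out 1 library, for ODR4 in 10 of 16 (all alternatives 0.0157 to 0.110) and for SAYSD1 in 11 of 16 (siCtrl 1 or 4, siXBP1 1, 2 or 3, Vehicle 1, 3 or 4, and MKC8866 1, 3 or 4, adjusted p from 0.0538 to 0.113). SAYSD1 also missed the threshold without the filter on low counts (adjusted p = 0.112). Dixon's test marked no library in the 60 groups of 4 values it was run on, where chance alone would mark about 1 in 20. It was not run on depth or on every listed gene. RPN1, for example, was at 499.7 CPM in siCtrl 4, where the other siCtrl libraries had 479.3 to 480.0 CPM.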

How the results depend on the processing

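The members called after knockdown (5) and with MKC8866 (3) kept their direction under each alternative run, and UFM1, UFL1 and CDK5RAP3 stayed called in both comparisons under all of them. With MKC8866, UFC1 joined the called members under DESeq2, the stricter filter, the replicate block and 1 fit of all libraries. The replicate block gave 5 members lower after knockdown, 4 with MKC8866 and 1 with a different response. All genes called with MKC8866 numbered 2746 under the replicate block (1484 lower and 1262 higher), in place of 941 (654 lower and 287 higher). The block gave adjusted p = 0.00184 for UFC1 and 0.00214 for UFSP1 with MKC8866. Replicate numbers were not taken as pairs: same-numbered libraries of the inhibitor experiment had correlated deviations of 0.078 to 0.32 (6 of 8 libraries closest to their own number), and those of the knockdown experiment of 0.0086 to 0.061 (0 of 8).

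Leaving out 1 library at a time gave 0 to 2 members with a different response. It turned the sign of 3 small values that had passed no test, the difference of responses of DDRGK1 (−0.065 to 0.0023) and CDK5RAP3 (−0.096 to 0.039) and the knockdown value of UFSP1 (−0.054 to 0.020), where the cause was not tested beyond the smaller number of samples. Counts of UFSP2, UFC1, CDK5RAP3 and UFL1 leave out fragments on bases shared with other genes. With 12 ratio tests of 4 against 4, no ratio could be called after adjustment unless more of them reached the smallest p.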
